A study of Mus musculus with 8 samples.

Results

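The comparison was made between DDAH1-transgenic and wild type mice that had both been given PBS, in whole lung, and it was chosen by the genotype and treatment of the libraries. It holds 4 of the 8 libraries of the series, 2 of each genotype, and 14926 of the 23469 genes in the count table that passed a low-count filter. Both groups were C57BL/6 mice that received 50 µl of PBS by intratracheal instillation 3 times per week for 3 weeks, and their lungs were taken 24 hours after the last instillation, following a test of airway responsiveness and a lavage. The other 4 libraries came from mice of the same genotypes given 100 µg of house dust mite (HDM) extract in the same volume. Equal amounts of lung RNA from 4 mice were pooled in each group, and each pool was sequenced in duplicate. The 2 libraries of a group therefore share their mice, every SD is a spread between 2 libraries of one pool, and no p-value covers the variation between mice. The promoter and the sequence of the transgene are not given in the sources used here.

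The 4 libraries held between 9633928 and 11929374 counts. Sampling noise did not account for the gap between the duplicates, whose mean chi-square per gene was 13.3 in wild type mice and 19.3 in DDAH1-transgenic mice, so that they were kept apart. Defining markers of lung were abundant, since the surfactant protein gene Sftpc had between 99035 and 143295 counts and the club cell secretoglobin gene Scgb1a1 between 269721 and 482786 counts in each library. Rn45S, the precursor of the ribosomal RNAs, took 14.99% and 14.83% of the counts in wild type lungs and 21.4% and 21.8% in DDAH1-transgenic mice.

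DDAH1 hydrolyses asymmetric dimethylarginine (ADMA), a methylated form of arginine that is released when methylated proteins are broken down. ADMA competes with arginine for the nitric oxide synthases, so that the enzyme is known for keeping nitric oxide synthesis free of this inhibitor in the lung and in blood vessels. A whole lung taken from the chest can also carry pieces of its neighbours, which include the diaphragm and chest wall muscle, the atria and the cuff of heart muscle around the pulmonary veins, the thymus and mediastinal fat.

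The gene of the transgenic enzyme, Ddah1 (Entrez 69219), lies on chromosome 3 of GRCm38 from 145758692 to 145894277. It had 475 and 420 counts in the libraries of wild type mice and 771 and 509 counts in those of DDAH1-transgenic mice. The groups did not overlap, which held for 40.3% of all genes tested, and the log2 fold change was 0.66 (standard error 0.26). In edgeR's quasi-likelihood test the adjusted p was 0.358 (Benjamini-Hochberg, over all genes tested), above the threshold of 0.05. Because the sequence of the transgene is not known here, these counts may miss its transcript, and the value does not measure the transgene. Of the genes of ADMA, arginine and nitric oxide metabolism that were listed, 14 of 16 were tested, 4 had a fitted log2 fold change above 0 and 10 had one below 0, with a median of -0.54. The inducible synthase gene Nos2 was the 1 member that passed the test. Ass1, which encodes the enzyme that joins citrulline and aspartate to renew arginine, had 167 and 461 counts in wild type lungs and 126 and 106 in DDAH1-transgenic mice, with a log2 fold change of -1.20 and an adjusted p of 0.247. Nos1 had no count in any of these libraries.

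In all, 98 genes had an adjusted p-value under 0.05 (0.657% of the genes tested). DDAH1-transgenic mice had the higher level in 42 of them (0.281%) and the lower level in 56 (0.375%). The 4 libraries were arranged without overlap in all 98, against 40.3% of all genes tested. The median log2 fold change of all genes tested was 0.00079, and 7475 of the 14926 had a fitted value above 0. The counts of list members above and below 0 further on are to be read beside this share. The counts of list members past the test as higher or lower are to be read beside 0.281% and 0.375%. The study set out 104 top genes of this comparison in its main text, which account for 85 of the 98 and are called tabulated here. Its longer supplementary gene list was used only to match names to gene IDs. An untabulated gene is therefore one outside the main text's tables and may stand in that list. The tabulated genes were selected on the same libraries and are no independent evidence of a direction. The remaining 13 genes passed the test without being tabulated in this sense, 8 higher and 5 lower. An unadjusted p-value under 0.01 was reached by 533 genes (3.57% of those tested), and 429 of these were not tabulated, with 183 higher and 246 lower. By direction, 1.52% of the genes tested were higher and 2.05% lower at this level.

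**Figure D1:**
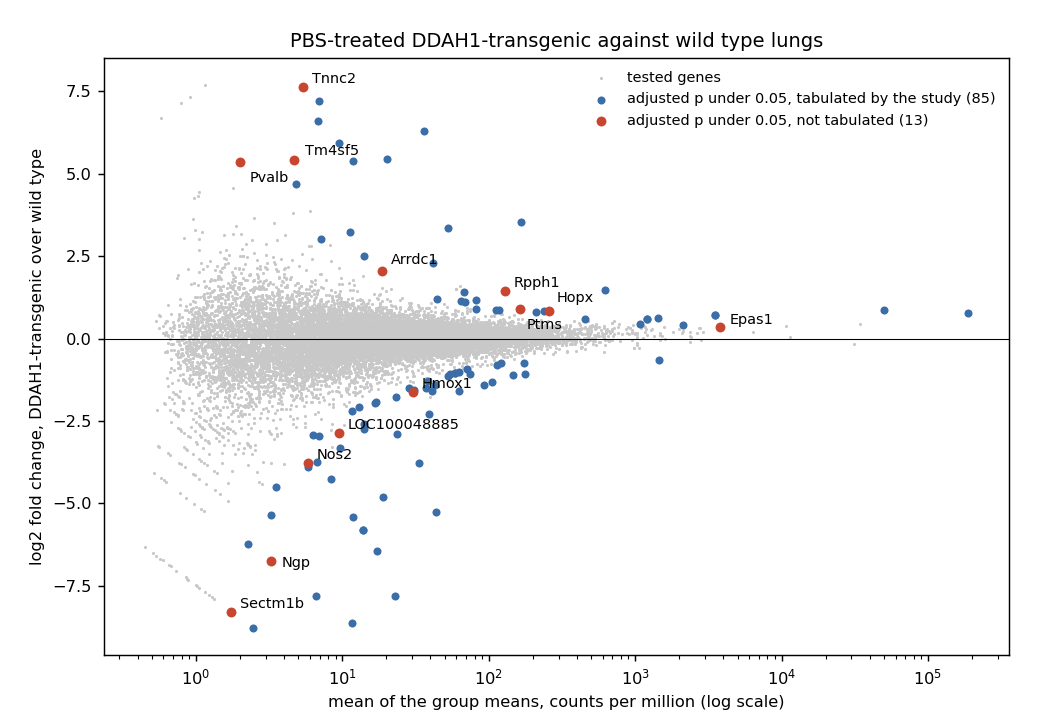
Each point is 1 of the 14926 genes tested, placed by the mean of the 2 group means in CPM (log axis), the counts of a gene scaled to a common library size, and by its fitted log2 fold change of PBS-treated DDAH1-transgenic over wild type mice. Blue points are the 85 genes with an adjusted p under 0.05 that the study tabulated, and red, named points are the 13 it did not tabulate, which run from Sectm1b at -8.28 to Tnnc2 at 7.63. Fitted values of genes without a count in one group are no bounds.

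Among the 8 higher genes that were not tabulated, 2 belong to fast muscle fibers. Tnnc2 (chromosome 2, 164777161 to 164779734) encodes the calcium-binding troponin C of fast skeletal muscle. It had 1 and 0 counts in wild type lungs and 179 and 48 counts in DDAH1-transgenic mice. From these counts it was 257-fold higher, with a 95% exact counting interval from 45.6 to 10190 (adjusted p = 0.0012 in the edgeR test, as for all adjusted values that follow). Both DDAH1-transgenic libraries were far above both wild type libraries, although they lay apart from each other. Pvalb, the parvalbumin that buffers calcium in fast fibers, had 1 count in each wild type library and 31 and 50 counts in the DDAH1-transgenic libraries, 45.8-fold higher with an interval from 12.3 to 385 (adjusted p = 0.048).

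Rpph1 (chromosome 14, 50807447 to 50807771), the RNA component of ribonuclease P, had 619 and 1019 counts in wild type lungs and 2474 and 1439 in DDAH1-transgenic mice. It rose from 68.8 ± 13.6 to 188 ± 64.0 CPM (SD, n = 2 libraries), which is 1.45 on the log2 scale with a standard error of 0.21 (adjusted p = 0.0012). Hopx (chromosome 5, 77086986 to 77115123), a homeodomain protein that marks alveolar type 1 cells, rose from 185 ± 37.6 to 333 ± 77.4 CPM, or by 0.84 on the log2 scale with a standard error of 0.17 (adjusted p = 0.022). Epas1 (chromosome 17, 86753864 to 86833410), a hypoxia-inducible factor abundant in endothelium, was the most abundant of the 13 and had the smallest rise among the 8, from 3369.5 ± 32.7 to 4267 ± 146 CPM, or by 0.34 on the log2 scale with a standard error of 0.07 (adjusted p = 0.028). The groups did not overlap in any of these 3 genes, nor in 40.3% of all genes tested. The DDAH1-transgenic libraries lay apart from each other for Rpph1 and Hopx.

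The other 3 higher genes were Arrdc1, Ptms and Tm4sf5. Arrdc1, an arrestin-domain protein known from the release of small vesicles, had 67 and 105 counts in wild type lungs and 217 and 400 counts in DDAH1-transgenic mice (log2 fold change 2.05, standard error 0.40, adjusted p = 0.019). Ptms, which encodes the nuclear protein parathymosin, had 1192 and 1500 counts against 1798 and 2560 (log2 fold change 0.88, standard error 0.18, adjusted p = 0.022). Tm4sf5, a small membrane glycoprotein, had 0 and 5 counts against 29 and 158 (log2 fold change 5.40, standard error 1.09, adjusted p = 0.024), so that its size rests mostly on 1 library.

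The 5 lower genes that were not tabulated include the inducible synthase and 2 others known from myeloid cells or their activation. Nos2 (chromosome 11, 78920787 to 78960226) gave 164 and 77 counts in wild type lungs and 5 and 11 in DDAH1-transgenic mice (log2 fold change -3.78, standard error 0.75, adjusted p = 0.022). The study also measured Nos2 by RT-qPCR in lungs of mice given PBS or HDM and reported no significant difference between the genotypes. Mice were the unit there, whereas the counts here come from duplicate libraries of a pool. Its network analysis named the same enzyme as the top upstream target of the genes that differed after PBS. Hmox1 (chromosome 8, 75093618 to 75100593), the heme oxygenase induced by heme and oxidants, had 349 and 754 counts against 124 and 184 (log2 fold change -1.61, standard error 0.34, adjusted p = 0.026). Ngp (chromosome 9, 110419808 to 110423012), a granule protein of neutrophil precursors, had 102 and 41 counts against 0 and 1, 126-fold lower with a 95% exact counting interval from 22.3 to 5026 (adjusted p = 0.011). Sectm1b (chromosome 11, 121053423 to 121063585), which encodes a secreted and transmembrane protein, had 37 and 45 counts in wild type lungs and none in DDAH1-transgenic mice. Against a floor of 3 counts over both libraries, 0.145 CPM, it was at least 24.2-fold lower (adjusted p = 0.025). LOC100048885, a major urinary protein locus, had 86 and 325 counts against 20 and 27 (log2 fold change -2.87, standard error 0.59, adjusted p = 0.025).

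Of the 13 genes, Tnnc2 passed the test under all 10 alternatives tried, and each of the others was lost under at least 1. Without wild type replicate 1, the calls of Ngp, Arrdc1, Ptms, Nos2, Hopx, Tm4sf5, Sectm1b, Epas1 and Pvalb were lost. Without wild type replicate 2, those of Sectm1b, LOC100048885, Hmox1, Epas1 and Pvalb were lost, and without DDAH1-transgenic replicate 2 those of Arrdc1, Ptms, Tm4sf5 and Pvalb. With all 8 libraries in the fit, Ngp, Ptms, Hopx, Tm4sf5, Sectm1b, LOC100048885, Epas1 and Pvalb were lost. Leaving out 1 library moved the log2 fold change of Tm4sf5 between 3.69 and 9.58, that of LOC100048885 between -3.45 and -1.85 and that of Ptms between 0.57 and 1.16.

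Larger fitted changes among untabulated genes that reached an unadjusted p-value under 0.01, without passing the adjusted test, came from genes with few counts. On the higher side, the embryonic myosin gene Myh3 had no count in wild type mice and 18 and 15 in DDAH1-transgenic mice, at least 12.4-fold higher. Ampd1, the AMP deaminase of skeletal muscle, had none against 28 and 10, at least 14.3-fold higher. Myot, a protein of the muscle Z-disc, had 0 and 2 counts against 24 and 18, 23.8-fold higher with an interval from 6.18 to 203. With Tnnc2 and Pvalb, 5 of the 10 largest higher values belong to skeletal muscle genes. All 5 had at most 2 counts in a wild type library and passed the low-count filter through the DDAH1-transgenic group. Ranking by fitted change favors such genes, so that this count is no evidence about muscle. The other 3 genes were H60c (3 and 0 against 45 and 27 counts), Pcdh20 (2 and 0 against 20 and 21) and the non-coding gene Gm20324 (none against 14 and 10), beside Tm4sf5 and 1700019M22Rik. The last, at 0 and 0 against 31 and 17 counts, starts 354615 bases from the start of Flrt2 on chromosome 12 and was the single other gene tested within 2 Mb of it. Flrt2, a tabulated adhesion protein gene, had 255 and 377 counts against 3327 and 3029.

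On the lower side, all 10 genes, with Sectm1b among them, had no count in either DDAH1-transgenic library. Dntt, the terminal transferase of developing lymphocytes, had 30 and 23 counts in wild type lungs, and Saa1, an acute phase protein, had 20 and 30. Gpr84, a fatty acid receptor of activated myeloid cells, had 18 and 23. The receptor genes Mrgpra2b (30 and 32) and Mrgpra2a (24 and 34) are near-identical neighbours on chromosome 7, between which reads may have been divided. The others were Gad1, the glutamate decarboxylase (20 and 42), Rpp25, a protein subunit of ribonuclease P (19 and 29), Nmnat3, an enzyme of NAD synthesis (30 and 15) and Oprd1, the delta opioid receptor (9 and 35). Against the floor, Gpr84 was at least 12.1-fold lower and Mrgpra2b at least 18.3-fold lower, and the 7 others lay between these bounds. Genes without a count in a group passed the low-count filter through the other group, so that their difference follows from the filter.

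To see which tissues and cells the changed genes mark, 48 lists with 670 genes were drawn up, of which 552 genes were tested. They were compiled with earlier results of these data known. Of the 429 untabulated genes with an unadjusted p-value under 0.01, 73 were on a list (17.0%), against 3.31% of all untabulated genes tested. In bulk tissue a smaller number of cells of a type and less RNA per cell cannot be told apart.

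**Figure D2:**
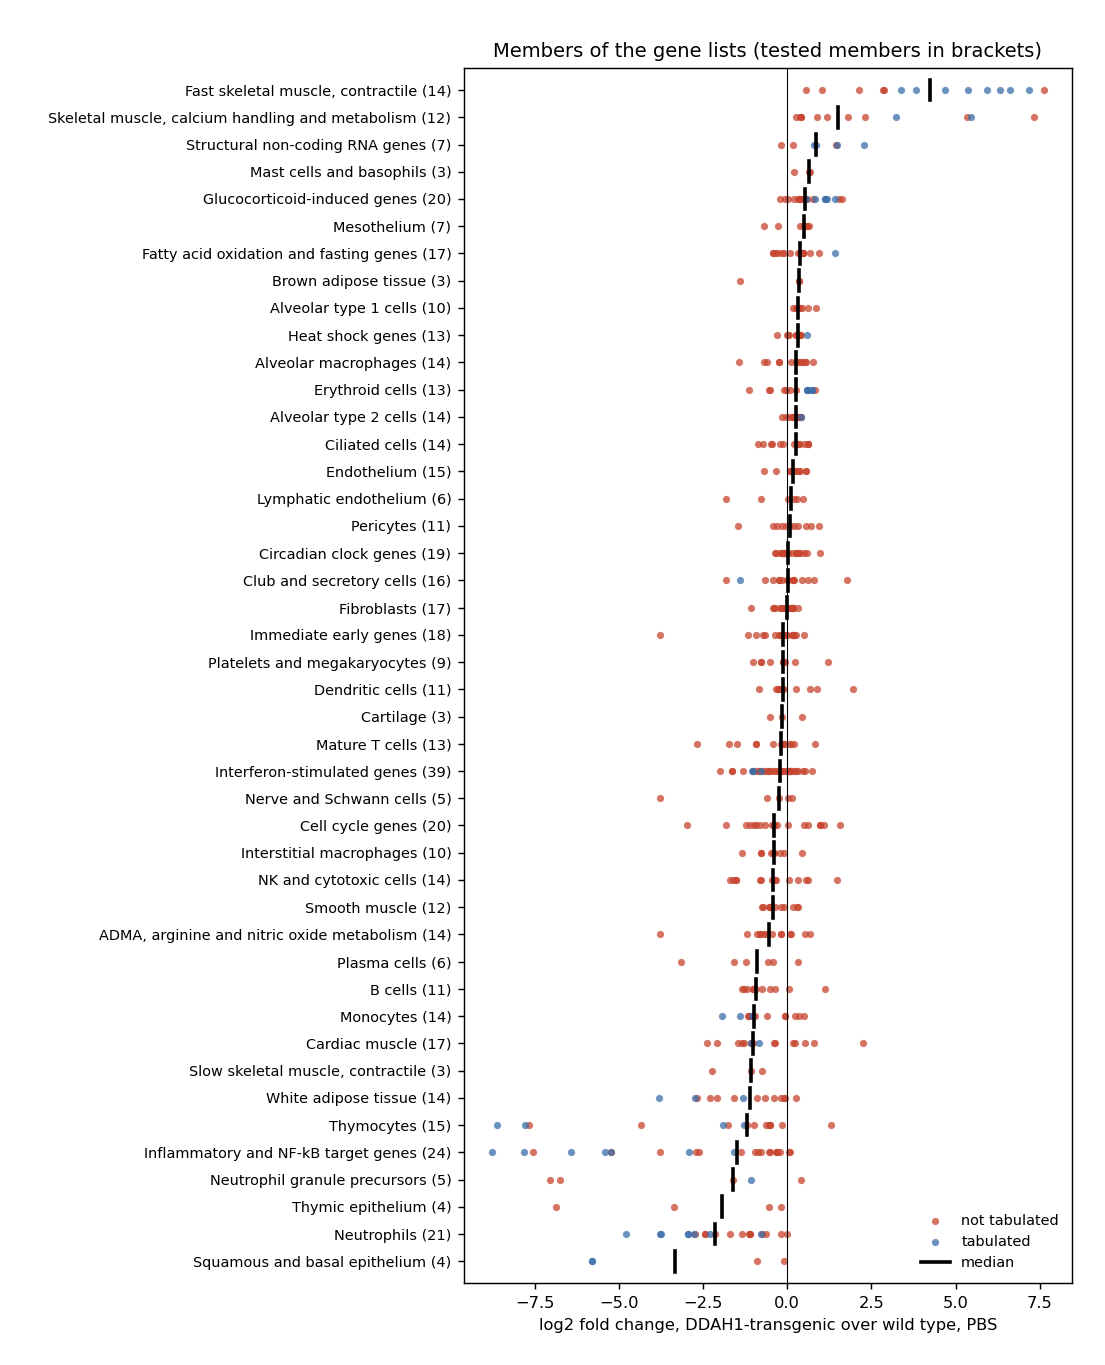
Fitted log2 fold changes of PBS-treated DDAH1-transgenic over wild type mice for the tested members of each list with at least 3 of them, ordered by the median (black bar); blue members were tabulated by the study and red ones were not. Fast skeletal muscle lies highest with a median of 4.25, neutrophils have a median of -2.16, and the lists of epithelial, endothelial and stromal lung cells lie between -0.42 and 0.31. The squamous median of -3.34 rests on 2 copies with the same counts among 4 genes.

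Genes of fast skeletal muscle gave the highest median of the lists with at least 3 tested members. Of the 18 contractile genes listed, 14 were tested, all 14 had a fitted value above 0, and 8 passed the adjusted test as higher and none as lower, against 0.281% and 0.375% of all genes tested. Their median log2 fold change was 4.25. Of the 14, 8 had been tabulated by the study, and the median of the 6 others was 2.49. Among these 6, beside Tnnc2, the essential light chain gene Myl1 had 12 and 37 counts in wild type lungs and 65 and 233 in DDAH1-transgenic mice (log2 fold change 2.85, adjusted p = 0.065). Myom2, a protein of the sarcomere's M-band, had 7 and 5 counts against 33 and 47 (2.87, adjusted p = 0.26). Acta1, the skeletal muscle actin, was abundant in both groups, with 390 and 467 against 536 and 578 counts (0.56, adjusted p = 0.43). The fast troponin I gene Tnni2 was below the count filter, with 2 and 0 against 47 and 4 counts.

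Of 12 tested genes for calcium handling and metabolism in skeletal muscle, 3 passed the test as higher, all 12 were above 0, and the median was 1.496. They were the calcium pump gene Atp2a1 and the creatine kinase gene Ckm, both tabulated, and Pvalb. None of the 3 tested slow contractile genes was above 0, with a median of -1.08 and no member past the test, and the slow troponin I gene Tnni1 had no count in any of these libraries. Myh7, the slow and cardiac myosin, had 289 and 434 counts in wild type lungs and 200 and 177 in DDAH1-transgenic mice (log2 fold change -0.75, adjusted p = 0.40). Pax7, Myod1, Myf5, Myf6 and Myog, which mark muscle stem cells and forming muscle, had no count in any of the 4 libraries. Of the 9 genes of that list, the acetylcholine receptor gene Chrna1 was the 1 tested, with 317 and 344 counts against 199 and 263 (-0.34, adjusted p = 0.78). The kinase gene Musk was below the filter with 0 and 9 against 3 and 69 counts.

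Muscle regulatory factors of the MyoD family bind short sequences called E-boxes. RefSeq promoter sequences of GRCm38.p6 were available for 9 of the 14 contractile genes tested, and the E-box CAGCTG, which reads the same on both strands, was found within 250 bases before the start of 4 of them (Acta1, Myh4, Myl1 and Mylpf), while it was found for 14.7% of 27025 genes. The stretches around it are shown for the light chain genes Mylpf (chr7:127211527-127211592, plus strand) and Myl1 (chr1:66945245-66945306, minus strand), both with an unadjusted p-value under 0.01, with the motif in capitals, 5′ to 3′ on the strand of the gene. The first motif base lies 51 bases before the start used for Mylpf and 224 bases before that used for Myl1. These are internal starts of RefSeq transcripts, 2760 bases inside the annotated gene start of Mylpf and 2876 bases inside that of Myl1.
Mylpf: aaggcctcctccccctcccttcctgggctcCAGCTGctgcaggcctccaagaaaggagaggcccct
Myl1: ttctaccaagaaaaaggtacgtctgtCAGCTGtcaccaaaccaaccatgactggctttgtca
The motifs searched were chosen with these results known, and a match is a description of the letters and not a site.

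Of 17 tested genes of heart muscle, 12 had a fitted value below 0, and the median was -1.02. The 1 that passed the test was the tabulated cardiac alpha myosin gene Myh6. Among those not tabulated, the atrial light chain genes Myl4 (228 and 283 counts in wild type lungs, 79 and 83 in DDAH1-transgenic mice) and Myl7 (279 and 405 against 100 and 185) had log2 fold changes of -1.48 and -1.06, with adjusted p of 0.11 and 0.27. The cardiac troponin I gene Tnni3 had 296 and 280 counts against 82 and 120 (-1.35, adjusted p = 0.14), and the cardiac troponin T gene Tnnt2 had 214 and 422 against 113 and 149 (-1.06, adjusted p = 0.27). In these 4 genes both DDAH1-transgenic libraries lay below both wild type libraries, and the groups did not overlap in 40.3% of all genes tested. Of the 17 genes, 5 had a fitted value above 0. Titin, Ttn, which skeletal and heart muscle share, had 3341 and 4050 against 5224 and 4151 counts (0.52, adjusted p = 0.074). The summed level of the list, Ttn included, did not follow the median, with 720 and 760 CPM in wild type mice and 734 and 672 CPM in DDAH1-transgenic mice when all 8 libraries were scaled together.

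All 15 listed genes of thymocytes, the T cell precursors of the thymus, were tested, and 14 were below 0 with a median of -1.21. As lower, 4 passed the test, against 0.375% of all genes tested, and all 4 were tabulated (Rag1, Arpp21, Cd4 and Tcf7). The median of the 11 others was -0.64. Rag2, the partner of Rag1 in receptor gene recombination, had 62 and 57 counts in wild type lungs and 2 and 3 in DDAH1-transgenic mice (log2 fold change -4.35, adjusted p = 0.053). Satb1, a chromatin organizer of thymocytes, had 642 and 551 against 232 and 233 (-1.21, adjusted p = 0.053). Of the thymic epithelial genes, Prss16, the thymus-specific serine protease, had 18 and 12 counts against none, and the chemokine gene Ccl25 had 39 and 44 against 3 and 4 (-3.35, adjusted p = 0.19). Psmb11, the thymic proteasome subunit, had between 3287 and 4611 counts in each library while Foxn1, the defining factor of that epithelium, had none.

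Of the genes of mature T cells, none of the 13 tested passed the test, 1 had an unadjusted p-value under 0.01, and the median was -0.17. That gene, the costimulatory receptor Cd28, had 191 and 168 counts in wild type lungs and 40 and 74 in DDAH1-transgenic mice (-1.49, adjusted p = 0.24). The difference between the thymocyte and mature T cell lists was not tested.

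Fat lies around the thymus and the heart. Of 16 white adipose genes, 14 were tested, and 13 were below 0 with a median of -1.10. As lower, 2 passed the test, against 0.375% of all genes tested, and both were tabulated (Cfd and Car3). The median of the 11 that were not tabulated was -0.67. Plin1, the coat protein of fat droplets, had 107 and 230 counts in wild type lungs and 18 and 50 in DDAH1-transgenic mice (-2.07, adjusted p = 0.14). Pck1, an enzyme of glyceroneogenesis, had 87 and 175 against 16 and 30 (-2.28, adjusted p = 0.12), and Thrsp, a regulator of lipid synthesis, had 120 and 102 against 19 and 12 (-2.69, adjusted p = 0.076). The lipid carrier gene Fabp4, which endothelium also expresses, had 228 and 307 against 68 and 88 (-1.59, adjusted p = 0.079). Below the count filter, the hormone gene Lep had 19 and 8 counts and the brown fat gene Ucp1 had 8 and 22 counts in wild type lungs. Neither had a count in DDAH1-transgenic mice. Of the 3 brown fat genes that were tested, however, 2 were above 0 and 1 below, with a median of 0.34. Lpl and Lipe, which other lung cells use too, had log2 fold changes of -0.08 each.

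**Figure D3:**
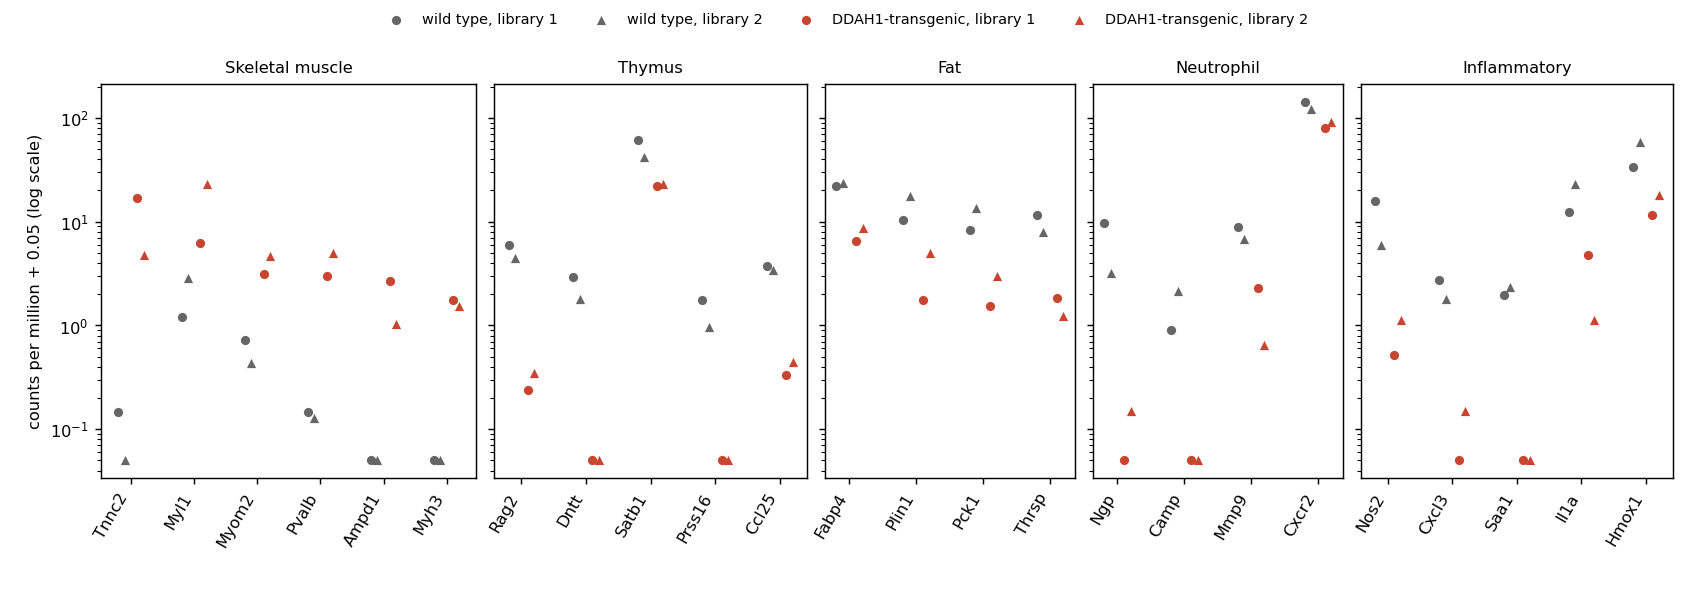
CPM values plus 0.05 (log axis) in each of the 4 PBS-treated libraries for 24 genes that the study did not tabulate, grouped by the tissue, cell or program they mark; grey is wild type, red is DDAH1-transgenic, circles are library 1 and triangles library 2. The 2 genotypes do not overlap for any gene shown, with muscle genes higher and all others lower in DDAH1-transgenic mice. The genes were chosen after their values were seen, and 40.3% of all genes tested do not overlap.

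Of 17 cartilage genes 3 were tested, with a median of -0.14 and none past the test, and the collagen gene Col2a1 had no count. Of 16 squamous and basal genes 4 were tested. The 2 that passed as lower, Sprr2a1 and Sprr2a2, were tabulated and are near-identical copies with the same counts in every library, and they cannot be told apart. Krt5, the keratin of basal cells, was below the filter with 4 and 15 counts in wild type lungs and none in DDAH1-transgenic mice. Cyp2e1, an oxidizing enzyme of liver that the lung makes too, had 994 and 1034 against 531 and 554 (-0.74, adjusted p = 0.12), while the albumin gene Alb had at most 16 counts. The medians were 0.50 over 7 mesothelial genes, 0.34 over 3 brown fat genes, -0.25 over 5 genes of nerve and 0.41 over 2 of liver, and the single thyroid gene tested had 1.70, with none past the adjusted test.

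Neutrophils are short-lived phagocytes that reach the lung from the blood. Of 23 listed genes 21 were tested, and 20 were below 0 with a median of -2.16. The test was passed by 6 as lower and by none as higher, against 0.375% and 0.281% of all genes tested. Of the 21, 8 were tabulated, among them all 6 that passed, and the median of the 13 others was -1.13. The gelatinase gene Mmp9 had 93 and 87 counts in wild type lungs and 24 and 6 in DDAH1-transgenic mice (log2 fold change -2.43, adjusted p = 0.20), and the chemokine receptor gene Cxcr2 had 1501 and 1588 against 845 and 920 (-0.64, adjusted p = 0.12). Of 5 tested genes of granules formed in the bone marrow, 2 passed the test as lower, Lcn2, which was tabulated, and Ngp, which was not. Chil3, which alveolar macrophages also express, had 3807 and 4574 counts against 5093 and 4803 (0.42, adjusted p = 0.13), and the summed level of the list was 636 and 612 CPM in wild type mice and 583 and 612 in DDAH1-transgenic mice. Camp, the cathelicidin, had 9 and 27 counts against none, while Mpo, Ctsg and Prtn3, which mark earlier precursors, had none in any of the 4 libraries. Ltf, lactoferrin, had 217 and 207 against 15 and 107 (-1.61, adjusted p = 0.35), a difference within which the 2 DDAH1-transgenic libraries lay apart from each other.

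Monocytes enter the lung from the blood, whereas alveolar macrophages reside in its air spaces. Of 14 monocyte genes, 11 were below 0 with a median of -0.99. The test was passed by 3 as lower, against 0.375% of all genes tested. All 3 were tabulated, with F13a1 and Itgal among them. The chemokine receptor gene Ccr2 had 626 and 735 counts in wild type lungs and 395 and 206 in DDAH1-transgenic mice (log2 fold change -1.01, adjusted p = 0.13). Of 14 alveolar macrophage genes, 9 were above 0 with a median of 0.27, and none passed the test or had an unadjusted p-value under 0.01. The lipopolysaccharide receptor gene Cd14, on the list of interstitial macrophages, had 348 and 335 against 103 and 137 (-1.34, adjusted p = 0.11). Of 11 dendritic cell genes 7 were below 0 with a median of -0.13, and none passed the test. Against that direction, the chemokine gene Ccl17 had 26 and 42 against 100 and 131 (1.96, adjusted p = 0.15).

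B cell genes had a median of -0.93 over 11 tested members. None passed the adjusted test, and 2 had an unadjusted p-value under 0.01, the receptor component Cd79a (329 and 663 counts against 226 and 127) and Ms4a1, which encodes CD20 (270 and 436 against 184 and 119), with adjusted p of 0.11 and 0.24. The medians were -0.90 over 6 plasma cell genes, -0.42 over 14 genes of NK and cytotoxic cells, -0.12 over 9 platelet genes, -0.26 over 2 eosinophil genes and 0.66 over 3 genes of mast cells and basophils, without a member past the adjusted test.

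NF-kB is a factor activated by cytokines and bacterial products. Of 28 listed inflammatory genes and targets of NF-kB, 24 were tested, and 22 were below 0 with a median of -1.48. The test was passed by 8 as lower, against 0.375% of all genes tested. Of these 8, 7 were tabulated and Nos2 was not. The median of the 17 untabulated members was -0.79. Il1a, an alarmin cytokine, had 129 and 301 counts in wild type lungs and 50 and 11 in DDAH1-transgenic mice (log2 fold change -2.61, adjusted p = 0.057). Ptgs2, the inducible cyclooxygenase, had 782 and 676 against 394 and 279 (-0.97, adjusted p = 0.12). Tnf had 47 and 159 against 25 and 2 (-2.70, adjusted p = 0.23). Leaving out 1 library moved Tnf between -5.32 and -1.80 and Il1a between -4.00 and -1.91. The neutrophil chemokine gene Cxcl3 had 28 and 23 against 0 and 1, so that its low group holds a single count. The cytokine gene Il6 had at most 15 counts in a library and was below the filter.

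RefSeq promoters were available for 18 of the 24 members tested. A core of NF-kB sites (GGG, any 2 bases, TT, any base, then CC), searched on both strands, was found within 250 bases before the start of 6 of them (Cxcl2, Cxcl3, Il1rn, Nfkbia, Tlr2 and Tnfaip3) and of 4.71% of 27025 genes. Of these 6, Nfkbia had a log2 fold change of 0.07, Tlr2 of -0.32 and Tnfaip3 of -0.56, with adjusted p of 0.96, 0.82 and 0.52. Because the list was drawn up to hold targets of NF-kB, its share with the core follows partly from that choice. That share was not tested and is no evidence about the genotype difference. The stretches of the paralogs Cxcl2 (chr5:90903772-90903841, plus strand) and Cxcl3 (chr5:90785998-90786067, plus strand) are shown because these chemokine genes lie near each other and were both close to 0 in DDAH1-transgenic mice. The capitals mark the motif, which begins 97 bases before the start of Cxcl2 and 73 bases before that of Cxcl3.
Cxcl2: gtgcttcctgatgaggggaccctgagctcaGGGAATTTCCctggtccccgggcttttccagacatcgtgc
Cxcl3: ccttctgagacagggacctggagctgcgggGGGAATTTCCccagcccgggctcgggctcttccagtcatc
The same 10 letters stand in both promoters. Cxcl2, which was tabulated, had 248 and 295 counts in wild type lungs and 1 and 10 in DDAH1-transgenic mice.

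Of 39 interferon-stimulated genes tested, 25 were below 0 and 14 above, and the median was -0.20. The test was passed by 3 as lower, against 0.375% of all genes tested. All 3 were tabulated, with the near-identical GTPase genes Tgtp1 and Tgtp2 among them. Among those not tabulated, Cxcl9, a chemokine gene driven by interferon-gamma, had 367 and 343 counts in wild type lungs and 166 and 89 in DDAH1-transgenic mice (-1.33, adjusted p = 0.12), and the sensor gene Oas2 had 161 and 225 against 52 and 33 (-1.999, adjusted p = 0.070). Ifit1 had 375 and 379 against 547 and 435 (0.54, adjusted p = 0.50).

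Among the resident lung cells, all 10 alveolar type 1 genes had a fitted value above 0, with a median of 0.31. Of all 14926 genes tested, 7475 were above 0. Of the 10, 3 were higher with an unadjusted p-value under 0.01, against 1.52% of all genes tested, and Hopx passed the adjusted test. The junction gene Cldn18 had 6985 and 8553 counts in wild type lungs and 9978 and 8579 in DDAH1-transgenic mice (log2 fold change 0.43, standard error 0.10, adjusted p = 0.070). Of 14 alveolar type 2 genes 12 were above 0, with a median of 0.25. The surfactant gene Sftpa1, tabulated, passed the test at a log2 fold change of 0.42, and Sftpc had 0.39 (standard error 0.10, adjusted p = 0.073).

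In the airways, 16 club and secretory genes had a median of 0.02 with 9 above and 7 below 0. The tabulated defence protein gene Bpifa1 passed the test as lower, with 1441 and 1744 counts against 509 and 549. The mucin gene Muc5b had 7502 and 8936 against 5352 and 5528 (-0.42, adjusted p = 0.11), and Clca1, a goblet cell gene, had 80 and 41 against 182 and 200 (1.78, adjusted p = 0.12). The 14 ciliated cell genes had a median of 0.25, and none had an unadjusted p-value under 0.01.

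In the vessels and stroma, 13 of 15 endothelial genes were above 0 with a median of 0.18, and none passed the adjusted test. The medians were 0.10 over 6 lymphatic endothelial genes, 0.07 over 11 pericyte genes, -0.02 over 17 fibroblast genes and -0.42 over 12 smooth muscle genes. Acta2, the smooth muscle actin, had 856 and 963 counts in wild type lungs and 565 and 410 in DDAH1-transgenic mice (-0.73, adjusted p = 0.17).

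Of 13 erythroid genes tested, 5 passed the test as higher, against 0.281% of all genes tested. All 5 were globin genes that the study tabulated, among which Hba-a1 and Hba-a2 and again Hbb-b1 and Hbb-b2 had identical counts. The median of the 13 was 0.25. Outside the globins, Alas2, the first enzyme of heme synthesis in red cell precursors, had 234 and 299 counts in wild type lungs and 401 and 427 in DDAH1-transgenic mice (0.82, adjusted p = 0.26), and the median of the 8 untabulated members was -0.07. Among 7 structural non-coding genes and genes with ribosomal RNA sequence, 5 passed the test as higher, against 0.281% of all genes tested. They were Rn45S, Rmrp, Rpph1, Mir5109 and Lars2, and Rpph1 was not tabulated. The counts of Lars2 came to between 21.2 and 30.4 per 100 counts of Rn45S in all 8 libraries. Malat1 had 365425 and 412696 against 279941 and 331824 counts (-0.17, adjusted p = 0.42).

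Glucocorticoids, the stress hormones of the adrenal cortex, act through a nuclear receptor. Of 20 of the genes they induce that were tested, 18 were above 0 with a median of 0.54. The test was passed by 5 as higher and by none as lower, against 0.281% and 0.375% of all genes tested. All 5 were tabulated. The median of the 14 untabulated members was 0.38. Klf9, a steroid-responsive repressor, had 1249 and 1754 counts in wild type lungs and 1894 and 2040 in DDAH1-transgenic mice (0.58, standard error 0.15, adjusted p = 0.11). Hif3a had 89 and 44 against 272 and 107 (1.61, adjusted p = 0.24). The clock gene Per2, which glucocorticoids also induce, had 183 and 280 against 336 and 458 (0.98, adjusted p = 0.20), while the 19 clock genes had a median of 0.02.

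Of the other programs, 11 of 13 heat shock genes were above 0 with a median of 0.31, and the tabulated Dnaja1 passed the test. The chaperone gene Hspa8 had 10636 and 13627 counts against 13753 and 13305 (0.34, adjusted p = 0.12). The medians were 0.37 over 17 genes of fatty acid oxidation and fasting, with the tabulated Angptl4 past the test, -0.12 over 18 immediate early genes and -0.39 over 20 cell cycle genes, with none past it. Egr1, an early response factor, had 813 and 1236 against 423 and 659 (-0.72, adjusted p = 0.23), and the mitotic motor gene Cenpe had 177 and 133 against 45 and 34 (-1.83, adjusted p = 0.15).

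The HDM-treated libraries show where each PBS-treated group lies within the series. Sex-linked genes also differed between PBS-treated and HDM-treated libraries, as given further on. Whatever goes with that difference cannot be told apart from treatment in these sums. With all 8 libraries scaled together, the summed level of the fast contractile genes was 55.6 and 56.7 CPM in PBS-treated wild type mice, against 360 and 378 in PBS-treated DDAH1-transgenic mice, 363 and 375 in HDM-treated wild type mice and 242 and 264 in HDM-treated DDAH1-transgenic mice. The PBS-treated wild type pool was thus the low one of the 4 groups. For the summed thymocyte list it was the high one, at 269 and 248 CPM. PBS-treated DDAH1-transgenic mice were lowest at 106 and 104, with both HDM-treated groups between 162 and 194. The neutrophil sum had the same order, with 683 and 646, then 289 and 297, and between 410 and 469 CPM in HDM-treated mice. The thymocyte order is that of the sum and not of each member. Dntt had 30 and 23 counts in PBS-treated wild type mice and none in PBS-treated DDAH1-transgenic or HDM-treated wild type mice. It had 5 and 0 in HDM-treated DDAH1-transgenic mice. The mature T cell sums were 127 and 120 CPM in wild type and 109 and 100 in DDAH1-transgenic mice after PBS. After HDM they were 231 and 217, and 296 and 265. Since the mice of a group were pooled, genotype, pool and the amount of neighbouring tissue taken with the lung cannot be told apart, and the part of Rn45S and of neighbouring tissue in the results was not tested.

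**Figure D4:**
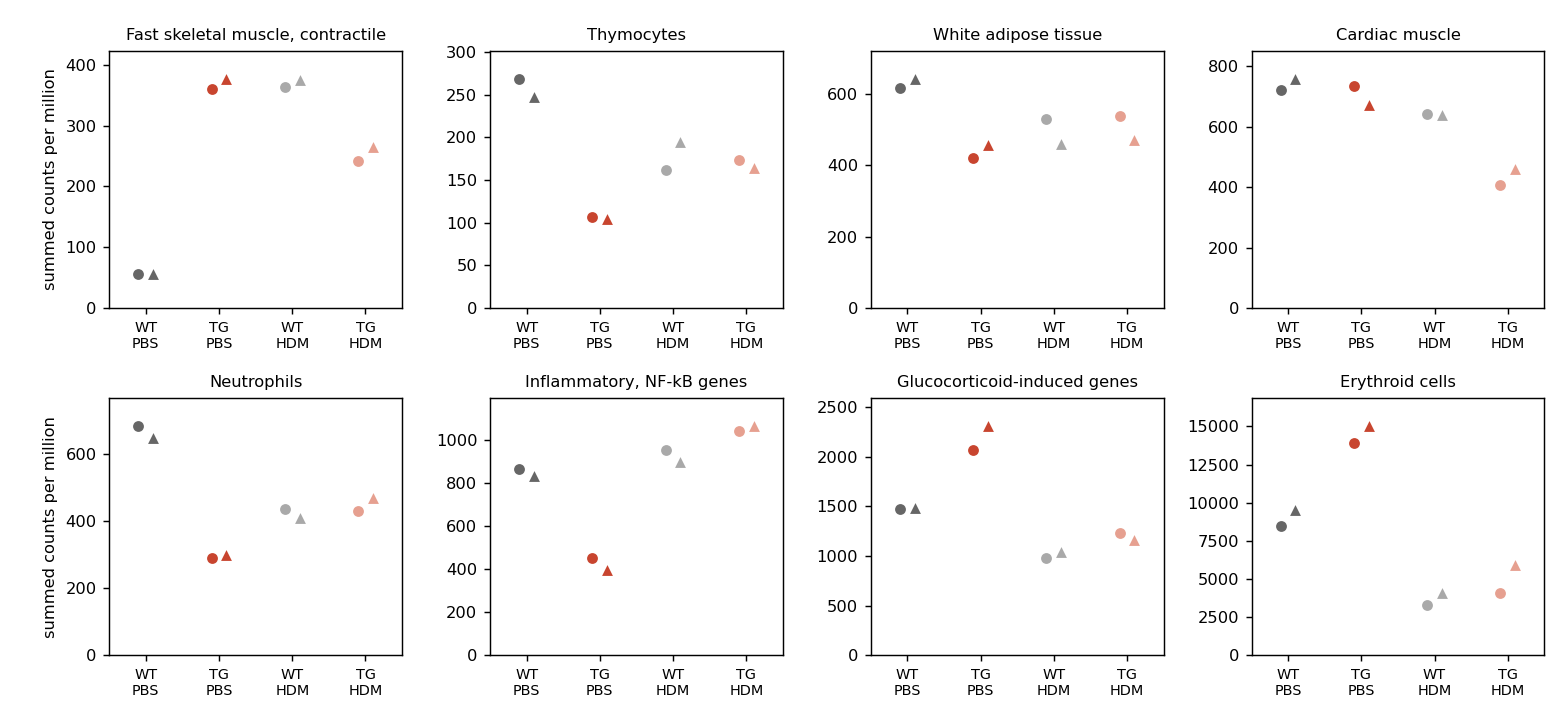
Summed CPM of the tested members of 8 lists in all 8 libraries, scaled together, from 0 upwards; WT is wild type, TG is DDAH1-transgenic, and the circle and triangle are the 2 libraries of a group. PBS-treated wild type mice lie lowest for fast muscle (55.6 and 56.7) and highest for thymocytes (269 and 248). Treatment cannot be told apart from what goes with a difference in sex-linked genes between PBS-treated and HDM-treated libraries.

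Whether the genotype difference under PBS differed from that under HDM was tested over all 8 libraries. It did for 279 of 15868 genes (1.76%, adjusted p under 0.05), of which 167 had a larger log2 fold change under HDM. The smallest p-values on that side belonged to Saa3, Fth1 and Acod1, and on the other to Mir5109, Rn45S and Lars2. Of the 98 genes called under PBS, 50 were among the 279, and of the 13 untabulated ones 5 were (Tnnc2, Rpph1, Ptms, Hmox1 and Epas1). The PBS difference that selected these genes is itself a part of the interaction. These counts are therefore no independent evidence that the genotype difference depends on treatment. For no gene can the treatment in this test be told apart from what goes with a difference in sex-linked genes. Xist, the RNA that coats a silenced X chromosome, gave 113 to 197 counts per library after PBS and 20303 to 31372 after HDM. The Y-linked gene Ddx3y gave 621 to 719 and 2 to 3 counts. The 2 PBS-treated genotypes had low Xist and high Ddx3y alike.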

How the data were processed

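Lung RNA was sequenced from DDAH1-transgenic C57BL/6 mice and their wild type counterparts, given PBS or HDM. RNA of 4 mice was pooled per group, and 10 ng of total RNA was amplified before the libraries were built, which can distort levels of scarce transcripts. The authors deposited raw read counts per Entrez gene, made by alignment to mm10 with TopHat and counting of reads in coding regions with ShortRead in Bioconductor. The submitters' processing notes also name bcl2fastq, CASAVA 1.8 and DESeq. Positions and symbols were taken from RefSeq tables of GRCm38.p6, which named 23372 of 23469 genes. The study's supplementary gene lists named 7 more.

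Genes were filtered with filterByExpr (minimum count 10), scaled by TMM and tested with edgeR 4.0.16 (glmQLFit, glmQLFTest) in R 4.3.3 on the 4 PBS-treated libraries, with Benjamini-Hochberg adjustment and a threshold of 0.05. The interaction was fitted on all 8 libraries. Ratios against a group with 1 to 3 counts carry 95% exact intervals that cover counting error only, and groups without counts were set to a floor of 3 counts over both libraries. The code was tested on simulated data. Alternatives were DESeq2 1.42.0, its size factors, no filter, library sizes without Rn45S and globin genes, all 8 libraries, the replicate number as a block, and leaving out each library.

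Genes were named by fixed rules. These took Ddah1 and every gene past the adjusted test outside the study's main tables. The study's supplementary lists served only to match names to gene IDs. The rules also took the 10 largest untabulated fitted changes per direction with an unadjusted p-value under 0.01 and no overlap between the groups. The rest were the 3 interaction genes per direction with the smallest p-values, the sex-linked checks, and members of the 48 lists. Of their 670 genes 662 were matched. List members given as examples, Flrt2 and the motifs were chosen after their values were seen. The members and lists were chosen with earlier results of these data known.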

Additional observations from a re-analysis of the deposited data

Results flagged for a closer look

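The genotype difference under HDM minus that under PBS passed the interaction test (edgeR, adjusted p under 0.05) for 31 of the genes named. Over all genes it passed for 279 of 15868 (1.76%). The naming favored such genes, since some were named by their interaction p-value and many by the PBS difference that enters the test. The 31 are thus no result about the named set. The values below are differences of log2 fold changes, and those of genes without counts in a group are fitted values and no bounds. Among muscle genes the difference was -5.64 for Tnnc2, -7.01 for Myh4, -6.26 for Atp2a1, -4.53 for Ckm and -1.36 for Acta1. Among inflammatory, neutrophil-attracting and interferon-driven genes it was 8.83 for Acod1, 8.37 for Saa1, 7.18 for Cxcl3, 6.00 for Saa3, 5.78 for Cxcl2, 2.10 for Cxcl9, 1.96 for Hmox1 and 1.62 for Il1rn, and it was 2.16 for the ferritin gene Fth1.

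Among lymphoid and dendritic cell genes it was 13.8 for Rag1, 2.44 for Cd28 and -3.45 for Ccl17, and it was 3.59 for Fabp4 and -1.68 for Chil3. In epithelium it was 6.06 for both Sprr2a1 and Sprr2a2, 2.51 for Bpifa1, -3.23 for Clca1 and -1.02 for Cldn18. Among structural RNAs it was -3.81 for Mir5109, -2.96 for Rpph1, -2.31 for Lars2 and -2.12 for Rn45S. It was -1.50 for Angptl4, -1.43 for Ptms and -0.85 for Epas1. Treatment and the difference in sex-linked genes cannot be told apart in any of these values.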

How the results depend on the processing

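The count of genes past the adjusted test, 98, was 306 without a low-count filter, 223 with DESeq2, and 75 to 432 when 1 library was left out, with 432 without DDAH1-transgenic replicate 1, 275 without replicate 2, 75 without wild type replicate 1 and 80 without replicate 2. Genes with an unadjusted p-value under 0.01 numbered 347 to 959 in the same fits. The interaction count, 279, was 675 without the filter, 680 with DESeq2, and 138 to 723 with 1 library left out. It was 162 and 138 without wild type PBS replicates 1 and 2, 146 without DDAH1-transgenic PBS replicate 2 and 723 without DDAH1-transgenic HDM replicate 2. A group left with 1 library was assumed to vary like the others. The cause of these shifts was not tested.

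With 1 library left out, list medians ranged from 4.02 to 5.23 for fast muscle, -1.003 to -0.83 for heart muscle, 0.22 to 0.57 for erythroid cells, -2.70 to -1.42 for neutrophils, -1.93 to -1.22 for inflammatory genes, 0.81 to 0.98 for structural RNAs, -1.41 to -1.15 for thymocytes and -1.57 to -0.91 for white fat. The log2 fold change of Acod1 ranged from -11.99 to -6.87, and that of Rmrp from 1.61 to 3.497. The sign turned for 4 genes that had not passed the test. With 1 library left out, the values ranged from -0.15 to 0.0042 for Lpl, from -0.22 to 0.065 for Lipe, from -0.074 to 0.23 for Nfkbia (with -0.0075 without wild type replicate 2), and from -0.42 to 0.46 for Xist.

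The replicate numbers did not pair the libraries (correlation of their deviations -0.011), and with the replicate number as a block 46 genes passed the test and the neutrophil median was -2.35. Of the 13 genes outside the study's main tables, the calls of the 12 other than Tnnc2, Rpph1 among them, were lost under the block. Pools of mice, amplification from little RNA and 2 libraries per group limit every value, and genes with few counts most of all.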
